A study of Mus musculus with 8 samples.

Results

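The axon guidance ligands and receptors measured here were the genes whose symbol names a semaphorin (Sema3 to Sema7), a plexin, an ephrin, an Eph receptor, a Slit, a Robo, a netrin or an Unc5 receptor. The symbols were read through the transcript accession of each array probe. The rule itself uses no measured values, but it was set with earlier results of these data known. There were 66 such genes among 19730 genes with a probe, and 61 of them were among the 13790 genes tested. The RNA came from mouse neural stem and progenitor cells that were derived from embryonic stem cells and grown as neurospheres, which are floating balls of dividing neural cells. NFIA-overexpressing cells and control cells had grown together in mixed spheres and were separated by fluorescence-activated cell sorting before RNA was taken. There were 4 groups of 2 arrays: NFIA cells of secondary neurospheres (passage 1, day 12 after the embryoid body stage), control cells of secondary neurospheres, NFIA cells of primary neurospheres (passage 0, day 6) and control cells of primary neurospheres. The labels do not describe the promoter or the construct that drives NFIA, the number of lines or clones, or separate cultures behind the numbered arrays. The p-values therefore measure only the spread between these arrays, which may be technical, and the cells of all groups share the mixed culture.

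Axon guidance molecules steer growing axons and migrating cells by attraction or repulsion. Semaphorins act through plexins, with neuropilins as co-receptors for most secreted members. Ephrins are bound to the membrane and signal through Eph receptor tyrosine kinases on touching cells, Slits repel through Robo receptors, and netrins act through Dcc and Unc5 receptors. In the embryonic neural tube and forebrain, progenitors and young neurons both express members of these families, where they also take part in cell sorting, boundary formation and cell migration. NFIA is a transcription factor of the nuclear factor I family, known for its part in the switch from neuron to glia production.

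Values are log2 signals relative to the 75th percentile of their array, so that 0 is the level of that percentile, and a difference of 1 is a doubling. An array signal cannot be set against that of another gene, so each gene is compared only with itself. In these sorted samples, fewer cells of a type and less RNA per cell cannot be told apart. A gene was called changed at a Benjamini-Hochberg adjusted p under 0.05 over all 13790 genes, from limma's moderated test. The 61 tested members were 18 of 20 semaphorins, 9 of 9 plexins, 8 of 8 ephrins, 13 of 14 Eph receptors, 3 of 3 Slits, 4 of 4 Robos, 3 of 4 netrins and 3 of 4 Unc5 receptors. Epha6, Ntn5, Sema3g and Unc5d were well above background on 0 of 8 arrays, and Sema4f on 2 of 8, so these 5 were not tested. Since a gene entered the test when both arrays of at least 1 group were above background, the tested members are those detected in some group.

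The arrays came with conflicting labels, and the results below depend on how these are read. The authors' value table has 1 column per titled sample, and 7 of 8 columns matched the scanner file attached to another sample (correlation at least 0.9998, against at most 0.339 with any other file). Each array was therefore given the title of the column it matched. Arrays of a group then correlated at 0.970 on average, against 0.960 between groups, while files taken as attached gave 0.955 within groups and 0.962 between them. The source names of the samples go against the titles for all 4 control samples, which carry that of the NFIA line, and for 2 of 4 NFIA samples, which carry that of the wild type. With files taken as attached, or with groups from the source names, 0 members were called in any comparison. In both settings 0 of all genes were called as well, so this is not particular to the members. Spots well above background made up 45.4% to 56.4% of an array. Nfia, the overexpressed gene, had log2 signals of 1.86 and 1.81 in secondary NFIA cells and 1.15 and 0.80 in secondary control cells. In primary neurospheres it had -0.07 and 1.08 in NFIA cells and -1.15 and -0.15 in control cells. The groups did not overlap within either passage, but the difference of 1.01 ± 0.32 (SE) over both passages did not pass the test (adjusted p = 0.167), and the primary NFIA cells lay below or within the range of the secondary control cells. All 12 markers of neural stem and progenitor cells, Sox2, Nes and Pax6 among them, were above background on 8 of 8 arrays.

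**Figure D1:**
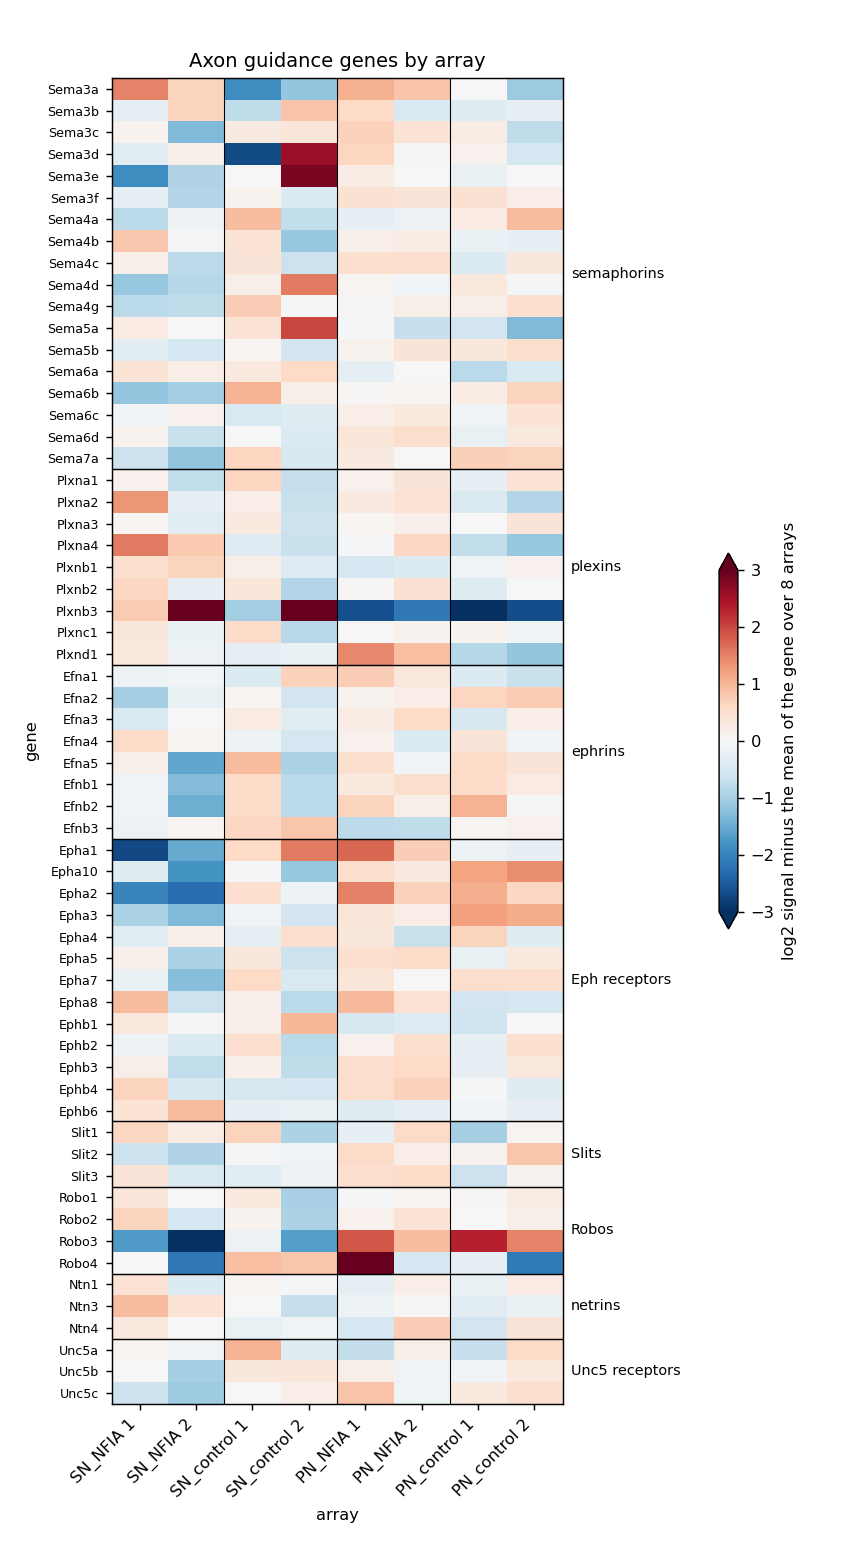
Each row is 1 of the 61 tested axon guidance genes and each column 1 array, with colour for the log2 signal minus that gene's mean over the 8 arrays (cut at -3 and 3; SN, secondary; PN, primary). Plxnb3 is highest on the secondary arrays numbered 2, Robo3 is highest in the primary groups, and Epha1 and Epha2 are lowest in secondary NFIA cells.

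Promoters of 4 members are printed, of the 6 called members with a promoter in the RefSeq table, because each carries a result below: Sema3a between NFIA and control cells, Epha3 and Robo3 between passages, and Epha2 between passages within NFIA cells. Each is the 250 bases before the annotated start, 5′ to 3′ on the gene's strand, from RefSeq on GRCm38.p6, with CG dinucleotides in capitals. Sema3a lies at chr5:13396534-13396783 on the plus strand, Epha3 at chr16:63864176-63864425 on the minus strand, Epha2 at chr4:141300971-141301220 on the plus strand and Robo3 at chr9:37433176-37433425 on the minus strand.
Sema3a: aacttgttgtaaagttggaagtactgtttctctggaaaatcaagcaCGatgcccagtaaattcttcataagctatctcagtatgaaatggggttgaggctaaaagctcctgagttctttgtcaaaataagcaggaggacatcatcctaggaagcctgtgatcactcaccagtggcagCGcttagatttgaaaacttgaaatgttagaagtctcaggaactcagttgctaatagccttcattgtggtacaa
Epha3: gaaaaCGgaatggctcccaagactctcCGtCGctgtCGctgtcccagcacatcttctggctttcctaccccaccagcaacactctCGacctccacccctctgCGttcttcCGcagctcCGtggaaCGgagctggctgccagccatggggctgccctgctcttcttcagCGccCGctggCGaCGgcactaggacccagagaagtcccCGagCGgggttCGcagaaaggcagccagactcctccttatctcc
Epha2: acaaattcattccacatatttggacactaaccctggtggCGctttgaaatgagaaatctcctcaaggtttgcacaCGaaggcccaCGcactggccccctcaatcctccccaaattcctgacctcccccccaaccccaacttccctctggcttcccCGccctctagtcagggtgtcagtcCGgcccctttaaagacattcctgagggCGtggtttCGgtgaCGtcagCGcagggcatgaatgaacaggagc
Robo3: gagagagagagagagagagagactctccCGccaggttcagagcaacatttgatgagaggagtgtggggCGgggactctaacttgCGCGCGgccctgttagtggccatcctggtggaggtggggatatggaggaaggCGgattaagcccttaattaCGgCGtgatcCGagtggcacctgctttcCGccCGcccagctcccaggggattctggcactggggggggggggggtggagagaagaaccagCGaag
The Sema3a window held 2 CG dinucleotides and was 40.8% G or C, the lowest of the 4. Epha3 held 16 at 62.8%, Robo3 12 at 61.2% and Epha2 9 at 55.6%. Over 57 members with a promoter in the RefSeq table the median was 16 CG dinucleotides and 64.8% G or C, against 6 and 52.0% over all 27025 promoters. The letters TTGGC, 1 arm of the palindrome that nuclear factor I proteins bind, were searched on both strands. They stood in 21 of 57 member promoters (36.84%) and in 41.94% of all promoters, and in 0 of the 6 with a promoter among the 8 members called in any comparison. A match is not a bound site, and no match says only that these letters are not in the window.

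NFIA cells were first compared with control cells over both passages, with 4 arrays a side and passage as a term. Sema3a and its receptor component Plxna4 rose in NFIA cells, and the ephrin Efnb3 fell. These 3 members made up 4.92% of the 61 tested, while 1.99% of all 13790 genes were called. By direction, 2 members were higher where 1.81% of all genes were, and 1 was lower where 0.181% were. The median difference over the 61 members was 0.03, against -0.04 over all genes.

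Sema3a, a secreted semaphorin that repels axons through neuropilin-1 and A-type plexins, had log2 signals of -0.03 and -0.85 in secondary NFIA cells and -3.39 and -2.69 in secondary control cells. In primary neurospheres it had -0.47 and -0.67 in NFIA cells and -1.52 and -2.62 in control cells. All 4 NFIA arrays lay above all 4 control arrays, and in secondary control cells only 1 of 2 arrays was above background. Sema3a was higher by 2.05 ± 0.37 (SE) on the log2 scale in NFIA cells (adjusted p = 0.0392). A second Sema3a probe, not used in the fit, gave 1.74.

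Plxna4, an A-type plexin that carries the Sema3a signal across the membrane and also binds Sema6 ligands, had 1.72 and 0.94 in secondary NFIA cells against -0.21 and -0.50 in secondary control cells. It had 0.12 and 0.78 in primary NFIA cells against -0.58 and -0.96 in primary control cells. The 4 NFIA arrays again lay above the 4 control arrays, and Plxna4 was higher by 1.45 ± 0.26 (SE; adjusted p = 0.0371).

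Efnb3, a transmembrane ephrin known as a midline barrier to corticospinal axons, had 3.0 and 3.23 in secondary NFIA cells against 3.79 and 3.99 in secondary control cells. In primary neurospheres it had 2.39 and 2.40 in NFIA cells against 3.25 and 3.30 in control cells. All NFIA arrays lay below all control arrays, and arrays of a group differed by at most 0.23. Efnb3 fell by 0.82 ± 0.15 (SE; adjusted p = 0.0396).

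All 3 adjusted p-values stood close to the threshold. Without any 1 of the 8 arrays the Efnb3 call was lost, with differences between -0.88 and -0.79. The Plxna4 call was lost for each array but the first of primary NFIA cells (differences 1.25 to 1.63). The Sema3a call was lost for each but the first of primary control cells (1.78 to 2.38). Such fits leave 1 group with 1 array. Fewer of all genes were called in them as well, except without the second secondary control array, so the losses are not particular to these members. With equally numbered NFIA and control arrays of a passage as pairs, 3 members were called where 2.58% of all genes were: Efnb3, Plxna4 and the Eph receptor Epha3 (-0.85, adjusted p = 0.0445), while Sema3a missed (0.0599).

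**Figure D2:**
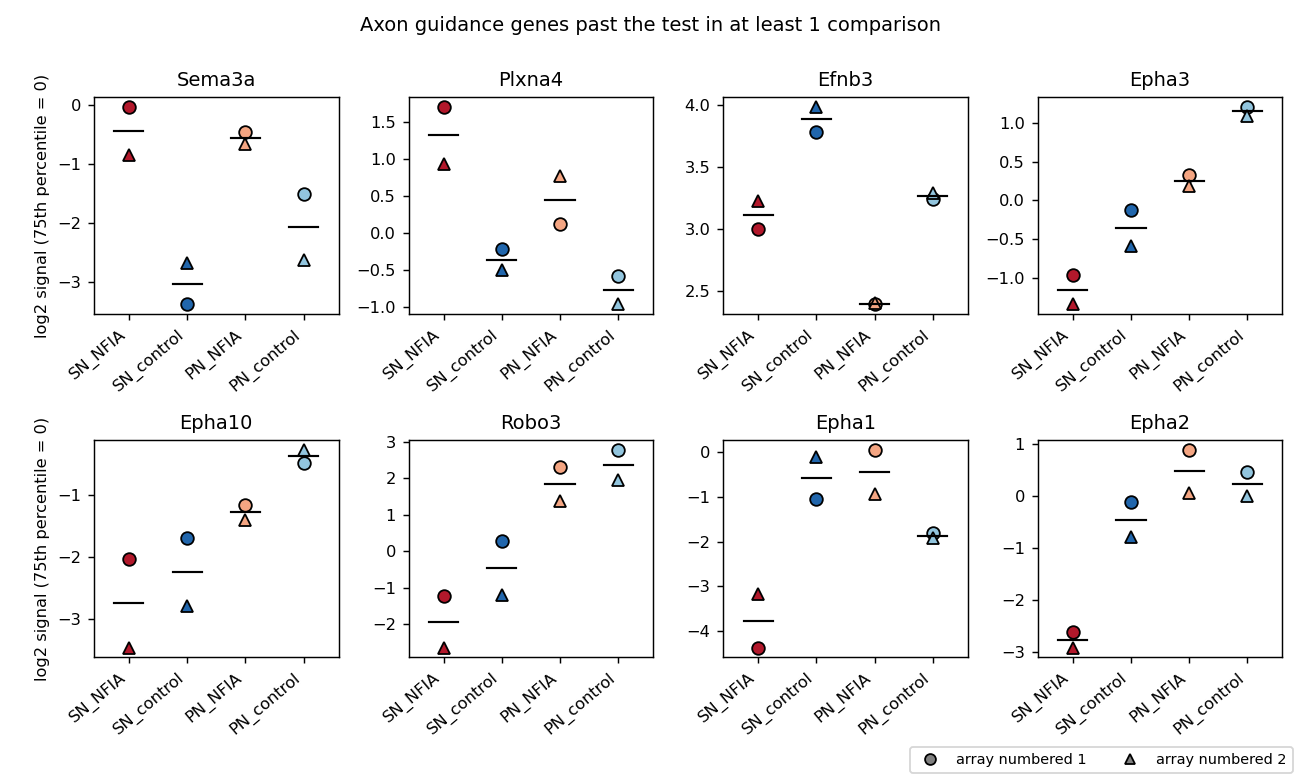
Log2 signal (75th percentile of the array = 0) on each array for the 8 axon guidance genes past the test in at least 1 comparison, by group, with bars for group means; circles are arrays numbered 1 and triangles arrays numbered 2. Sema3a and Plxna4 are higher and Efnb3 lower in NFIA cells at both passages, and Epha3, Epha10 and Robo3 are lower in secondary cells.

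At an unadjusted p under 0.05 there were 12 of 61 members (19.7%), against 17.6% of all genes, and 5 of them were semaphorins: Sema3a with a positive and Sema4d, Sema4g, Sema6b and Sema7a with a negative difference. Sema6b, a transmembrane semaphorin that binds Plxna4, had -2.13 and -1.99 in secondary NFIA cells against 0.08 and -0.80 in secondary control cells, and -0.95 and -0.92 in primary NFIA cells against -0.75 and -0.30 in primary control cells. Its NFIA arrays all lay below its control arrays, with a difference of -1.06 ± 0.32 (SE) that did not pass the test (adjusted p = 0.156). Sema7a, which is anchored to the membrane by a lipid and binds Plxnc1 and integrins, differed by -0.78 ± 0.28 (adjusted p = 0.215). The other plexins held Plxnd1, the receptor of Sema3e, at 1.25 ± 0.39 (adjusted p = 0.167), where a second probe gave 0.58, and Plxna2, a receptor for Sema6a, at 0.90 ± 0.36 (adjusted p = 0.252). Sema3a, Plxna4 and Plxnd1 were the 3 members (4.92%) with every NFIA array above every control array, where 3.68% of all genes had this order. Efnb3 and Sema6b were the 2 (3.28%) with the opposite order, where 2.07% of all genes had it.

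In the ephrin and Eph families, Efna2, a ligand of EphA receptors, differed by -0.45 ± 0.23 (adjusted p = 0.36), and Efna1, a ligand of Epha2, by 0.40 ± 0.35 (adjusted p = 0.609). Epha3 differed by -0.85 ± 0.18 (adjusted p = 0.0635), with -0.80 in secondary and -0.90 in primary neurospheres. Ephb4, the receptor of Efnb2, differed by 0.70 ± 0.26 (adjusted p = 0.228) and Epha8 by 0.87 ± 0.40 (adjusted p = 0.311). None of the 13 Eph receptors passed the test in this comparison, by limma without the pairs, and 2 had an unadjusted p under 0.05.

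Slits and Robos gave 0 calls in any comparison of NFIA with control cells unless arrays were paired, and 0 of the 7 had an unadjusted p under 0.05 over both passages. Slit1 differed by 0.58 ± 0.41, Slit2 by -0.38 ± 0.23 and Slit3 by 0.51 ± 0.26 (adjusted p 0.379 to 0.522). Robo1 differed by 0.21 ± 0.30 and Robo2 by 0.35 ± 0.33 (adjusted p = 0.769 and 0.646), and a second Robo2 probe gave 0.91. The netrins and Unc5 receptors were also without a call. Ntn3 differed by 0.60 ± 0.26 (adjusted p = 0.274), Ntn4, a netrin that binds laminins, by 0.26 ± 0.32, and Ntn1, the ligand of Dcc, by -0.02 ± 0.24. The repulsive netrin receptors differed by -0.29 ± 0.40 for Unc5a, -0.47 ± 0.28 for Unc5b and -0.47 ± 0.29 for Unc5c (adjusted p 0.441 to 0.765).

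Astrocyte markers moved with NFIA. Their summed level, in log2, was 9.19 and 9.97 in secondary NFIA cells against 6.11 and 8.02 in secondary control cells, and 6.36 and 7.89 in primary NFIA cells against 4.91 and 5.03 in primary control cells. Of 12 astrocyte genes 1 passed the test over both passages (Sparcl1, higher) and 11 had a positive difference, and Gfap was above background on 2 of 8 arrays. Neuronal markers had summed levels of 6.92 and 6.75 against 8.51 and 7.16 in secondary NFIA and control cells, and of 7.90 and 7.65 against 8.18 and 8.17 in primary NFIA and control cells. Of 15 tested neuronal genes limma called 0, with 13 negative differences and 8 at an unadjusted p under 0.05, 7 of them negative. Over both passages, most markers of non-neural cells had positive NFIA differences as well. Of 12 mesenchymal and mural genes 2 were called higher (Prrx1 and Acta2) and 11 had a positive difference, of 6 tested endoderm genes 2 were called higher (Sox7 and Cubn) and 5 were positive, and of 5 tested endothelial genes 1 was called higher (Emcn) and 5 were positive. Sox7 and Emcn were each above background on only 4 of 8 arrays. Both entered the test through NFIA groups alone, so the filter itself favoured a higher level in NFIA cells. The mesenchymal sums were 6.30 and 6.56 in secondary NFIA cells against 6.28 and 6.97 in secondary control cells, and 4.76 and 5.17 in primary NFIA cells against 3.58 and 2.88 in primary control cells. The endoderm sums spanned 3.24 to 4.42 over the 4 NFIA arrays against 3.42 to 3.89 over the 4 control arrays, and the endothelial sums 3.68 to 4.49 against 3.63 to 4.16. In secondary neurospheres alone, 9 of 12 mesenchymal and mural genes had a negative NFIA difference (median -0.48) and 3 a positive one. Endoderm genes there were 3 positive and 3 negative, and endothelial genes 3 positive and 2 negative. The part of these cell types in the Sema3a, Plxna4 and Efnb3 differences was not tested.

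Within primary neurospheres alone, limma called 0 of 61 members, where 0.305% of all genes were called, and 7 members (11.5%) had an unadjusted p under 0.05, against 9.45% of all genes. Both NFIA arrays lay above both control arrays for 20 members (32.8%), against 22.5% of all genes, and below them for 10 (16.4%), against 29% of all genes. Plxnd1 had 3.26 and 2.72 in NFIA cells against 0.95 and 0.65 in control cells. It was higher by 2.19 ± 0.30 (SE; adjusted p = 0.0513), and with paired arrays it was the 1 member called (adjusted p = 0.0488, where 0.508% of all genes were called). Epha1 had 0.05 and -0.93 in NFIA cells against -1.82 and -1.92 in control cells, a difference of 1.43 ± 0.53 that did not pass (adjusted p = 0.45). Robo4, known from endothelial cells, was above background on 1 of 2 primary NFIA arrays and 0 of 2 primary control arrays. Its level was 3.61-fold higher in NFIA cells when control signals below the array's lowest detected one were raised to it. The dim NFIA array was kept as measured, so this is not a strict bound. The difference did not pass limma's test (adjusted p = 0.613), and it rested on the 1 detected array. Marker lists moved in the same comparison, with 0 genes called in the lists that follow. Positive differences were found for 12 of 12 mesenchymal and mural genes (median 1.81, 9 at an unadjusted p under 0.05), 6 of 6 endoderm genes (median 1.91, 4 unadjusted), 5 of 5 endothelial genes (median 1.09, 2 unadjusted) and 10 of 10 pluripotency genes (median 0.84, 3 unadjusted). Among these, Sox7, Emcn and Eng entered the test through NFIA groups alone, so the filter itself favoured a positive difference. The part of such cells in the Plxnd1, Epha1 and Robo4 differences was not tested.

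Within secondary neurospheres alone, limma called 0 of 61 members as well, where 0.877% of all genes were called, 0.464% higher and 0.413% lower. The number with an unadjusted p under 0.05 was 15 (24.6%), against 15.1% of all genes, 5 with a positive and 10 with a negative difference. Of all 13790 genes, 1224 had a positive and 854 a negative difference at this threshold. Both NFIA arrays lay above both control arrays for 9 members (14.8%), against 19.4% of all genes, and below them for 16 (26.2%), against 19.6% of all genes. With paired arrays 0 members were called higher, where 2.79% of all genes were, and 5 were called lower, 8.2% of the 61, where 1.89% of all genes were lower and 4.68% changed in either direction: Epha1, Epha2, Robo3, Sema3e and Sema4d.

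Epha1, the Eph receptor that gave the family its name, had -4.37 and -3.18 in secondary NFIA cells against -1.06 and -0.11 in secondary control cells. It was above background on 1 of 2 NFIA arrays, and the difference was -3.18 ± 0.53 (SE) without pairs (adjusted p = 0.0521) and the same with them (adjusted p = 0.0287). Epha2, an EphA receptor of epithelial and early embryonic cells, had -2.62 and -2.92 in secondary NFIA cells against -0.13 and -0.80 in secondary control cells. The groups did not overlap, and the difference was -2.31 ± 0.39 (adjusted p = 0.0521 without and 0.0299 with pairs).

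Sema3e, the secreted ligand of Plxnd1, had -4.12 and -3.14 in secondary NFIA cells, with 1 of 2 arrays above background, against -2.25 and 0.58 in secondary control cells. The second control array stood far above the first, and the difference was -2.79 ± 0.83 (adjusted p = 0.177 without and 0.0493 with pairs). Sema4d, a ligand of plexin-B receptors, had -1.15 and -0.88 against 0.15 and 1.52, a difference of -1.86 ± 0.45 (adjusted p = 0.11 without and 0.0493 with pairs). Robo3, which keeps commissural axons from responding to Slit before they cross the midline, had -1.24 and -2.65 in secondary NFIA cells against 0.28 and -1.21 in secondary control cells. The second control array of Robo3 lay close to the first NFIA array, and the difference was -1.48 ± 0.68 (adjusted p = 0.373 without and 0.0348 with pairs). Without the first secondary control array 2 members were called, Sema3e and Sema4d, and without the second 5: Epha2, Sema3a, Sema3d, Sema4g and Sema6b. Over all genes, 54 were called without the first and 460 without the second, against 121 with all arrays.

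The NFIA difference was then compared between passages by an interaction term. Limma called 0 of 61 members and 0% of all 13790 genes, with or without pairs. At an unadjusted p under 0.05 there were 11 members (18%), against 6.54% of all genes. Of these, 9 had a more negative NFIA difference in secondary than in primary neurospheres: Epha1 (-4.61 ± 0.75), Epha2 (-2.56 ± 0.55), Plxnd1 (-1.89 ± 0.43), Robo4, Sema3e, Sema4d, Sema6b, Sema3c and Efna1. The other 2, Plxnb1 (1.15 ± 0.38) and Ephb6 (1.05 ± 0.37), a receptor without kinase activity, had a more positive one. Of all 13790 genes, 542 had a more negative and 360 a more positive one at this threshold. Adjusted p-values of the 11 lay at 0.178 or above. The median of this difference over the 61 members was -0.42, against 0.04 over all genes.

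**Figure D3:**
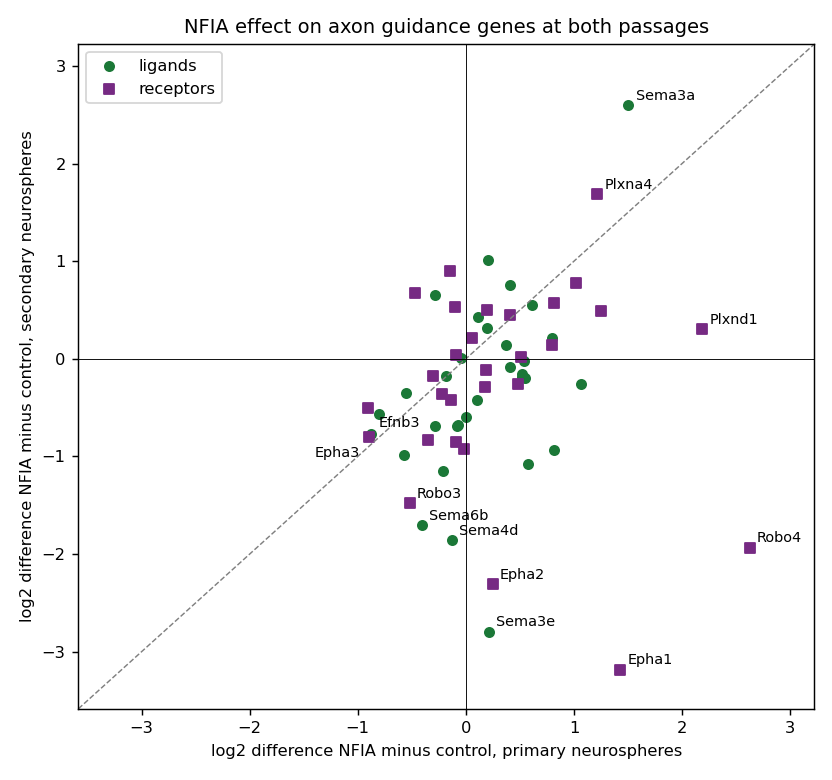
Each point is 1 of the 61 tested genes, with the log2 difference of NFIA minus control cells in primary neurospheres on the x axis and in secondary neurospheres on the y axis; circles are ligands, squares receptors, and the dashed line marks equal differences. Sema3a and Plxna4 lie high on both axes, Efnb3 and Epha3 low on both, while Epha1, Robo4 and Plxnd1 lie well below the line.

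Most pluripotency markers, but not all, moved with Epha1 and Epha2. In secondary neurospheres 7 of 10 had a negative NFIA difference and 3 a positive one, and in primary neurospheres 10 of 10 were positive. Their summed level was 3.55 and 5.18 in secondary NFIA cells, 4.87 and 5.68 in secondary control cells, 6.56 and 5.88 in primary NFIA cells and 5.56 and 5.58 in primary control cells. Of 10 pluripotency genes, 1 (Fgf4, lower) passed the test for NFIA in secondary neurospheres and 1 (Klf4, higher) over both passages, and Dppa3 was above background on 4 of 8 arrays. Pou5f1 had -3.56 and -2.49 in secondary NFIA cells against -1.14 and -0.05 in secondary control cells. In the same groups Nanog overlapped, with 0.19 and 0.46 against 0.67 and -0.10. Klf4 was higher there, with 1.68 and 2.19 against 0.08 and 0.45. The part of such cells in the Epha1 and Epha2 differences was not tested.

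Secondary neurospheres were compared with primary ones over NFIA and control cells together. Among the members the Eph receptors Epha3 and Epha10 and the receptor Robo3 fell in secondary neurospheres, and Efnb3 rose. These 4 members were 6.56% of the 61, while 7.09% of all genes were called, so the share called was close to the background. By direction, 3 members were lower (4.92%) where 3.65% of all genes were, and 1 was higher (1.64%) where 3.44% were. The 4 arrays of each passage lay in 1 row of the slide, so passage and slide row cannot be told apart, and likewise NFIA and control arrays lay in different columns.

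Robo3 had -1.24 and -2.65 in secondary NFIA cells and 0.28 and -1.21 in secondary control cells, against 2.31 and 1.37 in primary NFIA cells and 2.78 and 1.94 in primary control cells. Every secondary array lay below every primary array, and Robo3 fell by 3.31 ± 0.48 (SE) on the log2 scale (adjusted p = 0.0184). Epha3, an EphA receptor that binds Efna5, had -0.96 and -1.35 in secondary NFIA cells and -0.12 and -0.59 in secondary control cells, against 0.33 and 0.18 in primary NFIA cells and 1.22 and 1.1 in primary control cells. It was ordered by both passage and NFIA with no overlap between passages, and it fell by 1.46 ± 0.18 (adjusted p = 0.0144).

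Epha10, whose kinase domain is inactive, had -2.03 and -3.47 in secondary NFIA cells and -1.70 and -2.79 in secondary control cells, against -1.17 and -1.40 in primary NFIA cells and -0.49 and -0.28 in primary control cells. It fell by 1.67 ± 0.36 (adjusted p = 0.0389), with no overlap between passages. Efnb3, with the values given above, rose by 0.67 ± 0.15 in secondary neurospheres (adjusted p = 0.0407), although its secondary NFIA arrays lay below its primary control arrays, so that the passages overlapped.

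With the pairs of arrays as a random block, Epha3 was the 1 member still called (adjusted p = 0.0431, where 0.384% of all genes were called), while Robo3 had 0.0548, Epha10 0.0877 and Efnb3 0.104. Without 1 array, the Epha3 and Robo3 calls were lost when the first primary control or the first primary NFIA array was left out. Those of Epha10 and Efnb3 were lost in most such fits. The differences lay between -1.55 and -1.36 for Epha3 and between -3.70 and -2.93 for Robo3. They lay between -1.99 and -1.41 for Epha10 and between 0.61 and 0.72 for Efnb3. Each fit that lost a call also called fewer of all genes, so the losses are not particular to these members.

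Neuronal markers moved with passage, with 6 of 15 tested genes lower (Stmn2, Elavl4, Slc17a6, Nefl, Nefm and Neurod1) and 0 higher. Their summed levels are given above, and secondary arrays spanned 6.75 to 8.51 against 7.65 to 8.18 for primary arrays. Neurod6 was above background on 0 of 8 arrays and Neurod1 on the 4 primary ones. Mesenchymal and mural markers separated the passages, with sums of 6.28 to 6.97 on the 4 secondary arrays against 2.88 to 5.17 on the 4 primary arrays. Of these 12 genes, 3 were called higher over both cell types (Col1a1, Col3a1 and Dcn), and 10 had a positive difference. The other 2 were negative, Tagln at -1.06 and Acta2. In NFIA cells alone 7 were positive and 5 negative, with 0 called higher and 1 called lower. Astrocyte genes were called higher in 3 of 12 cases (Aldh1l1, Slc1a3 and Sparcl1). The part of neuronal, mesenchymal or astrocytic cells in the Robo3, Epha3, Epha10 and Efnb3 differences was not tested.

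Within NFIA cells alone, 3 members fell in secondary neurospheres, 4.92% of the 61, where 1.16% of all genes were called lower and 1.66% in either direction. Epha2 fell by 3.25 ± 0.39 (SE; adjusted p = 0.023), with -2.62 and -2.92 in secondary NFIA cells against 0.89 and 0.06 in primary NFIA cells. Epha1 fell by 3.33 ± 0.53 (adjusted p = 0.0394), with -4.37 and -3.18 against 0.05 and -0.93. Robo3 fell by 3.79 ± 0.68 (adjusted p = 0.0499). In all 3 both secondary NFIA arrays lay below both primary ones. No member was called higher, where 0.5% of all genes were.

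Without 1 array, the Epha1 difference lay between -3.92 and -2.73, that of Robo3 between -4.49 and -3.09 and that of Epha2 between -3.66 and -2.83. The 3 calls were kept when either secondary control array was left out, and most other fits lost them. Each fit that lost a call also called fewer of all genes, and it left 1 group with 1 array. The losses are therefore not particular to these members. Of 10 pluripotency genes, 4 were called lower in the same comparison (Esrrb, Fgf4, Dppa5a and Utf1), and the part of such cells was not tested.

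A larger share of members than of all genes had both secondary NFIA arrays below both primary NFIA arrays: 31 of 61 (50.8%), against 30.6% of all genes. The opposite order held for 9 (14.8%), against 26.4% of all genes. The median difference was -0.55 over the members and -0.04 over all genes. Within control cells limma called 0 of 61 members, where 0.783% of all genes were called (0.682% higher, 0.102% lower), and 12 members (19.7%) had an unadjusted p under 0.05, against 13.3% of all genes. There both secondary arrays lay below both primary ones for 14 members (23%), against 26% of all genes, and above them for 13 (21.3%), against 16.4%. Robo3 in control cells differed by -2.83 ± 0.68 (adjusted p = 0.15) and Epha3 by -1.51 ± 0.27 (adjusted p = 0.0729), whereas Epha2 differed by -0.69 ± 0.39 and Epha1 by 1.28 ± 0.53 (adjusted p = 0.496 and 0.366). The comparisons within NFIA and within control cells differ for each gene by the interaction given above, which passed the test for 0 members.

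**Figure D4:**
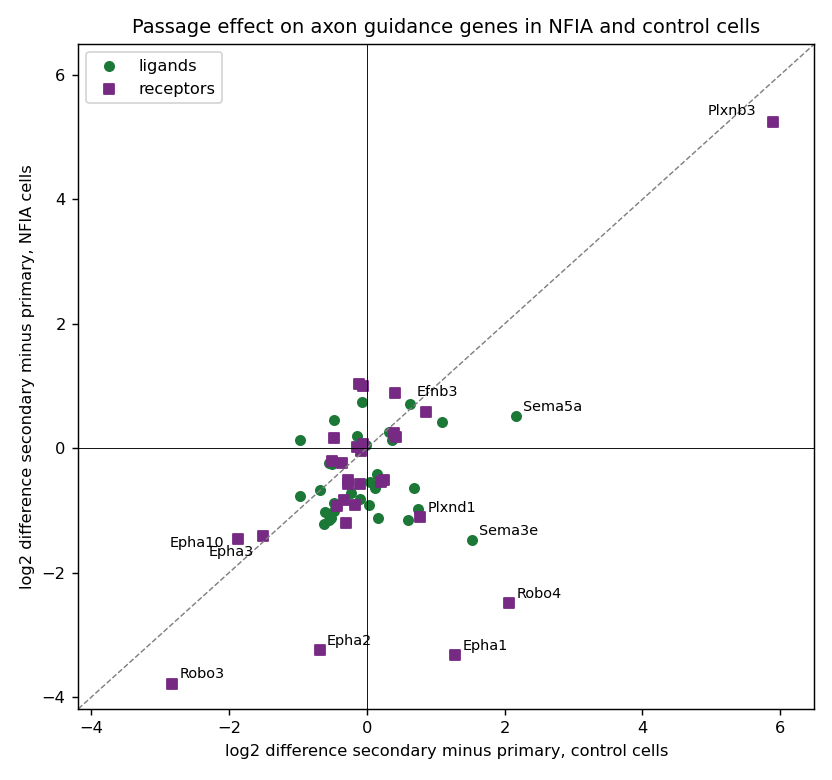
Each point is 1 of the 61 tested genes, with the log2 difference of secondary minus primary neurospheres in control cells on the x axis and in NFIA cells on the y axis; circles are ligands, squares receptors, and the dashed line marks equal differences. Robo3, Epha3 and Epha10 lie low on both axes, Plxnb3 lies high on both, and Epha1, Epha2 and Robo4 lie well below the line.

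Among the members without a call over both cell types, Epha2 differed by -1.97 ± 0.52 (adjusted p = 0.0629) and Efna2 by -0.86 ± 0.23 (adjusted p = 0.0607). Of the semaphorins, Sema5b, a transmembrane semaphorin, differed by -0.68 ± 0.19 (adjusted p = 0.0691), and Sema6a, a transmembrane ligand of Plxna2 and Plxna4, by 0.76 ± 0.21 (adjusted p = 0.069). Slit2 differed by -0.85 ± 0.23 (adjusted p = 0.0678), with 1.42 and 1.16 in secondary NFIA cells and 2.03 and 1.93 in secondary control cells, against 2.62 and 2.26 in primary NFIA cells and 2.16 and 2.89 in primary control cells. All secondary Slit2 arrays lay below the primary ones. This order held for 8 members (13.1%), Efna2, Epha2, Epha3, Epha10, Robo3, Sema3f, Sema5b and Slit2, against 7.64% of all genes. The opposite order held for 3 (4.92%), Plxnb3, Sema5a and Sema6a, against 4.55% of all genes. Of the netrins and Unc5 receptors, Unc5c differed by -0.75 ± 0.29 (adjusted p = 0.155), Ntn3 by 0.33 ± 0.26 (adjusted p = 0.453) and Unc5a by 0.32 ± 0.40 (adjusted p = 0.657).

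Plxnb3, a plexin-B receptor known from oligodendrocyte-lineage cells, had the largest passage difference of any member and the largest spread. It had -1.36 and 2.85 in secondary NFIA cells and -3.14 and 4.35 in secondary control cells, against -4.75 and -4.25 in primary NFIA cells and -5.81 and -4.78 in primary control cells. It was above background on 3 of 4 secondary arrays and 0 of 4 primary arrays, and the 2 secondary arrays numbered 2 were the highest. Its level was 30.1-fold higher in secondary neurospheres, with dim primary signals raised as for Robo4. The dim secondary array was kept as measured, so this is not a strict bound, and the difference did not pass the test (adjusted p = 0.0716). The summed level of 8 oligodendrocyte markers was 4.49 and 6.80 in secondary NFIA cells and 3.93 and 8.73 in secondary control cells, against 3.11 and 3.21 in primary NFIA cells and 3.28 and 3.35 in primary control cells. All 8 of these markers were tested, and 3 of them (Olig1, Pdgfra and Cspg4) were called higher in secondary neurospheres. A positive difference was found for 7 of the 8 and a negative one for Mbp (-1.09). In NFIA cells alone Mbp was called lower (-1.86). The part of oligodendrocyte-lineage cells in the Plxnb3 difference was not tested.

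The 2 arrays of a group differed more among these genes than among genes at large in secondary neurospheres. The second array differed from the first by over 1 on the log2 scale for 16 members in NFIA cells (26.2%, against 14.8% of all genes) and for 25 in control cells (41.0%, against 19.5%). The median of this difference was -0.45 in secondary NFIA cells and -0.55 in secondary control cells, against -0.03 and 0.07 over all genes. It was below 0 in both groups for 34 members (55.7%), against 32.3% of all genes. In primary neurospheres the shares beyond 1 were 6.56% of members in NFIA cells and 11.5% in control cells, against 5.46% and 6.61% of all genes. Replicate numbers have no order, so these differences only show how the secondary arrays split.

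**Figure D5:**
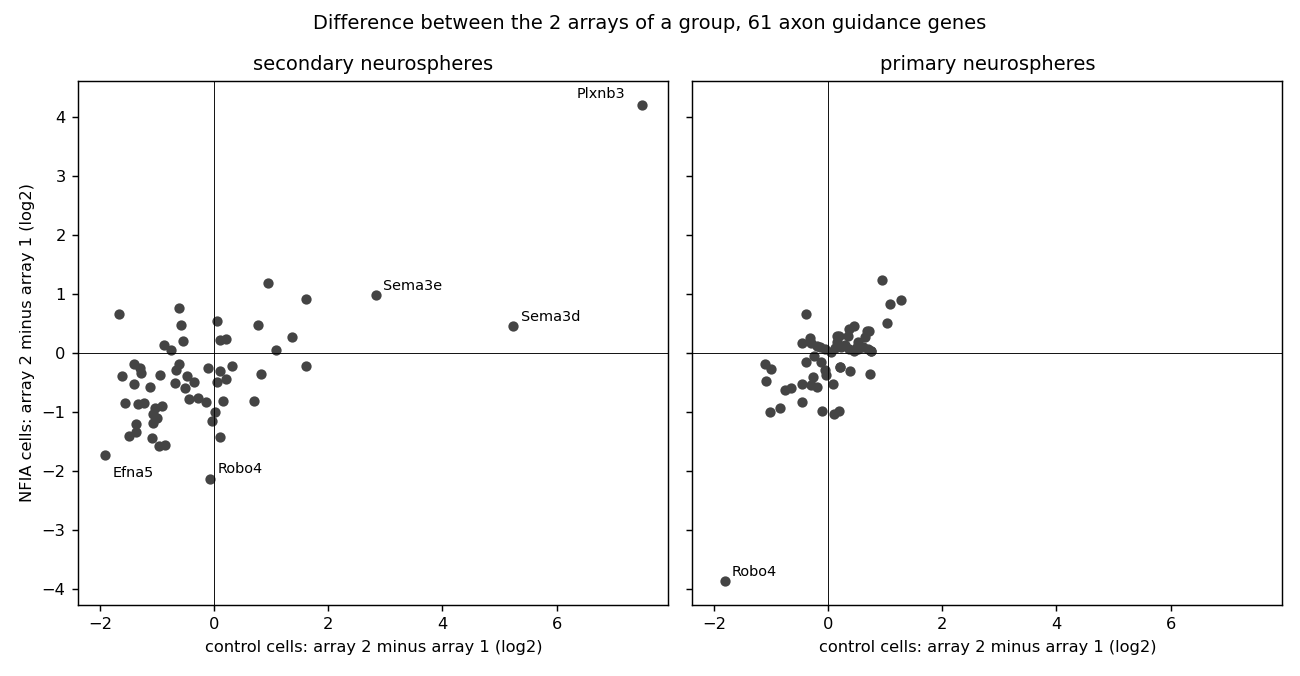
Each point is 1 of the 61 tested genes, with the log2 difference of the second minus the first array in control cells on the x axis and in NFIA cells on the y axis, for secondary (left) and primary (right) neurospheres. Points spread further in secondary neurospheres, most of them lie below 0 on both axes, and Plxnb3 stands at the upper right.

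The second secondary array was lower by over 1 in both NFIA and control cells for Efna5, Efnb1, Efnb2, Epha7, Epha10, Robo2 and Robo3. The share of all genes with this pattern was not counted, so nothing is read from their number. Efna5, a lipid-anchored ligand of EphA receptors, had 2.74 and 1.00 in secondary NFIA cells and 3.51 and 1.60 in secondary control cells. Efnb2, the transmembrane ligand of Ephb4, had 1.21 and -0.14 in secondary NFIA cells and 1.90 and 0.53 in secondary control cells. Plxnb3 went the other way in both groups, and Sema3d had -2.65 and -2.19 in secondary NFIA cells and -5.02 and 0.22 in secondary control cells. These members were chosen after their values were seen.

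Co-receptors and effectors of the same pathways formed a second list of 52 genes, of which 50 were tested. None passed the limma test in a comparison of NFIA with control cells, with 10 of 50 at an unadjusted p under 0.05 over both passages, against 17.6% of all genes, and the smallest p belonged to Farp1, a guanine nucleotide exchange factor downstream of A-type plexins, at 0.80 ± 0.18 (adjusted p = 0.0762). Flrt1, a binding partner of Unc5 receptors, followed at 0.95 ± 0.26 (adjusted p = 0.123) and Ntng2, a netrin-G protein, at 2.26 ± 0.64 (adjusted p = 0.133). Over passages 3 of 50 rose, where 3.44% of all genes were called higher: Draxin, a secreted repellent that binds Dcc, by 2.02 ± 0.49 (adjusted p = 0.0492), the kinase Fyn by 1.29 ± 0.25 (adjusted p = 0.0289) and Rnd1, a small GTPase that binds plexins, by 0.71 ± 0.16 (adjusted p = 0.04). With pairs as a random block these adjusted p-values were 0.135, 0.0792 and 0.109. Nrp1, the neuropilin that binds Sema3a, had -1.19 and -2.23 in secondary NFIA cells and -1.84 and -2.55 in secondary control cells, against -1.82 and -2.34 in primary NFIA cells and -2.75 and -2.83 in primary control cells, with overlap between NFIA and control arrays.

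Second probes did not always give the same value. Between passages, Sema6d had -0.48 by the probe used and 2.27 by the other, Ephb6 had 0.47 and -0.34, and Ntn1 had 0.02 and -0.15. For NFIA against control cells, Ntn1 had -0.02 and 0.15, and Epha5 had 0.11 and 0.86.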

How the data were processed

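RNA of sorted cells was labelled with Cy3 and hybridised to 1-colour Agilent arrays, 8 arrays on 1 slide with 1 scan date. The deposited scanner files hold, per the file headers, background-subtracted spot intensity from Feature Extraction 10.5.1.1 (10.7.3.1 in the submitters' processing notes), with flags of 0 or 1 for signal above background and for outliers. The authors' deposited value table holds log2 values, with every probe's median set to 0 and running the same way as log2 scanner signals, as a comparison with them showed. How it was scaled between arrays is not given in the sources used here, and its column medians were -0.156 to 0.220.

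Here log2 of the processed signal minus the array's 75th percentile (302.5 to 619.1 intensity units) was used. Of 55681 probes, 126 with outlier flags were left out, and 26010 had a symbol. Probes needed a signal flagged above background on the 2 arrays of some group, and the brightest kept probe stood for its gene. Tests used limma 3.58.1 in R 4.3.3 on all 13790 genes, with 4 group means or additive terms for NFIA and passage. The code was also run on simulated data with planted NFIA differences. The simulated noise was independent between arrays, unlike the real arrays, so that run does not show the error rates of these tests. Equally numbered arrays of a passage deviated together (correlation 0.445 in primary and 0.484 in secondary neurospheres over all genes, from -0.188 to 0.042 across passages), and the cells were sorted from mixed cultures, so NFIA comparisons were also run with these pairs as a block. The normexp alternative used median spot signals and background, since the files hold no mean signal. Named were members past any test, per family the 3 smallest p for NFIA and the 2 smallest for passage over all arrays, other list genes past a test or among the 3 smallest p for NFIA, and members that a count, an alternative or a marker comparison singled out, which were chosen after their values were seen. Members and lists were chosen with earlier results of these data known. The number of arrays limits the precision.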

Additional observations from a re-analysis of the deposited data

How the results depend on the processing

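For the 7 comparisons, 142 recounts of the members called were made, and 93 equalled the reported count or were within 1.5 times of it. Recounts of 0 against a reported 0 are among the 93, also where a setting called 0 of all genes. The 93 therefore do not measure how well the calls held. Quantile normalization, normexp, the authors' value table and the mean of a gene's probes kept all reported members called; normexp added Efna2 and Slit2 over passages. Taking the scanner files as attached, or groups from the source names, gave 0 members called over both passages (NFIA), over both cell types (passage) and in NFIA cells (passage), as did leaving out the 2 NFIA arrays with a wild-type source name. With files as attached the differences turned sign for NFIA against control to -0.24 (Plxna4) and -0.55 (Sema3a), for passage over both cell types to -0.030 (Draxin), -0.0077 (Efnb3), 0.090 (Epha3), -0.22 (Fyn) and 0.47 (Robo3), and for passage in NFIA cells to 0.017 (Epha1), 0.75 (Epha2) and 1.22 (Robo3). With groups from the source names they turned to 0.48 (Efnb3), -0.49 (Plxna4) and -1.16 (Sema3a) for NFIA. In both settings 0 of all genes were called in any comparison, so the absence of called members is not particular to them. The cause of the turned signs was not tested. Without a filter on dim probes, which adds genes to the adjustment, the NFIA count over both passages was 0, the passage count over both cell types 2 and in NFIA cells 1. With the replicate number as a block over all arrays the NFIA calls over both passages fell to 0. The NFIA count in secondary neurospheres was then 1 and the passage count in control cells 1. Over all genes these 3 fits called 254, 62 and 148, against 274, 121 and 108 in the main fit. With the replicate block within each passage, the counts were 3 over both passages, 1 in primary and 5 in secondary neurospheres, and it left the count for the difference between passages at 0. That block was not run for passage, since pairs lie within a passage; the random replicate block by pair gave 1. In secondary neurospheres, quantile normalization gave 2, normexp 1 and probes above background on all arrays 1 for NFIA. Over all genes these settings called 164, 203 and 64, against 121 in the main fit. Fitting only the 2 groups compared gave 1 in primary neurospheres and 0 for passage in NFIA cells. Over all genes it called 150 and 12, against 42 and 229 in the main fit. Without both secondary arrays numbered 2, a setting chosen after seeing the data, the NFIA count was 0 over both passages and 1 in primary neurospheres, and Plxnb3 was called over passages at 2.65 (adjusted p = 0.042). Over all genes, NFIA calls over both passages were 274, against 145 without the filter, 57 without the 2 arrays and 0 with attached files or source names, and passage calls over both cell types 978, against 458 without the filter, 376 without both secondary arrays numbered 2 and 53 with the random block. Leaving out 1 array at a time gave 0 to 1 members for NFIA over both passages, 0 in primary and 0 to 5 in secondary neurospheres, 0 for the difference between passages, and for passage 0 to 10 over both cell types, 0 to 5 in control cells and 0 to 4 in NFIA cells. Each fit without 1 array leaves 1 group with 1 array, and the calls over all genes changed in most of these fits too. Members that were not well above background in a group have only a bound there.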
